A study of Mus musculus with 670 samples.

Results

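Nr4a1, Nr4a2, Nr4a3, Klf2, Klf4, Klf6, Dusp1, Ier2, Zfp36 and Btg2 are 10 of the 55604 gene rows measured. They were taken by name as regulators that a stimulus induces: 3 nuclear receptors, 3 Krüppel-like factors and 4 early feedback genes. The cells were single skeletal stem cells, sorted by flow cytometry from long bones of male mice after the bone had been broken up mechanically and with enzymes. They were sequenced by SmartSeq2, a full-length method with 1 library per well. The ages were postnatal day 3 (plate 9), 2 months (plates 1, 3 and 4) and 24 months (plates 2, 5 and 12). All cells were untreated and uncultured, and the labels name no strain, genotype or animal. Each age is therefore 1 sample. No test was made, and differences between plates of an age are a description of these plates. Of 670 wells, those with 1000 or more genes, 50000 or more reads in genes and a mitochondrial share below 20% passed. These were 68 cells at postnatal day 3, 15, 70 and 69 cells on plates 1, 3 and 4 of 2 months, and 5 cells on each plate of 24 months.

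These genes are switched on within minutes of a growth factor, a calcium or cAMP pulse, mechanical load or the handling of a tissue, by factors already present in the cell. Nr4a proteins are orphan nuclear receptors that act without a known physiological ligand, and Klf proteins are zinc finger factors that bind GC-rich promoters. The feedback genes close the response again: Dusp1 removes phosphate from MAP kinases, Zfp36 brings AU-rich mRNAs to decay, and Btg2 recruits the CCR4-NOT deadenylase and restrains proliferation. Ier2 is a nuclear protein of the same early wave. In bone, NR4A receptors are known as early targets of parathyroid hormone in osteoblasts, and KLF4 as a brake on osteoblast differentiation.

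The genes as a set were high at 2 months and lower at both other ages. Together they took 0.123% of gene reads at postnatal day 3, 1.59%, 1.32% and 1.27% on plates 1, 3 and 4 of 2 months, and 0.781%, 0.115% and 0.521% on plates 2, 5 and 12 of 24 months. The plates of 24 months lay below those of 2 months, and postnatal day 3 lay below every adult plate except plate 5. Dusp1 had the highest CPM of the members on each adult plate and so weighed most in these sums. The members did not move as 1 block. Plate 1 of 2 months lay below postnatal day 3 for Nr4a1, Nr4a2, Klf4 and Klf6. Nr4a1 was nearly absent at 24 months, whereas Dusp1 overlapped with 2 months there and exceeded postnatal day 3 on every plate.

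Levels are CPM, the reads summed over the passing cells of a plate and scaled to a common total, and the value of an age is the mean of its plates. A gene met the size rule when the higher age reached 10 CPM, the means differed at least 2-fold with 1 CPM added, and the plates of both ages did not overlap. In such sums, fewer cells with a gene and less of its RNA per cell cannot be told apart. The share of cells with a read is therefore given as well.

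**Figure D1:**
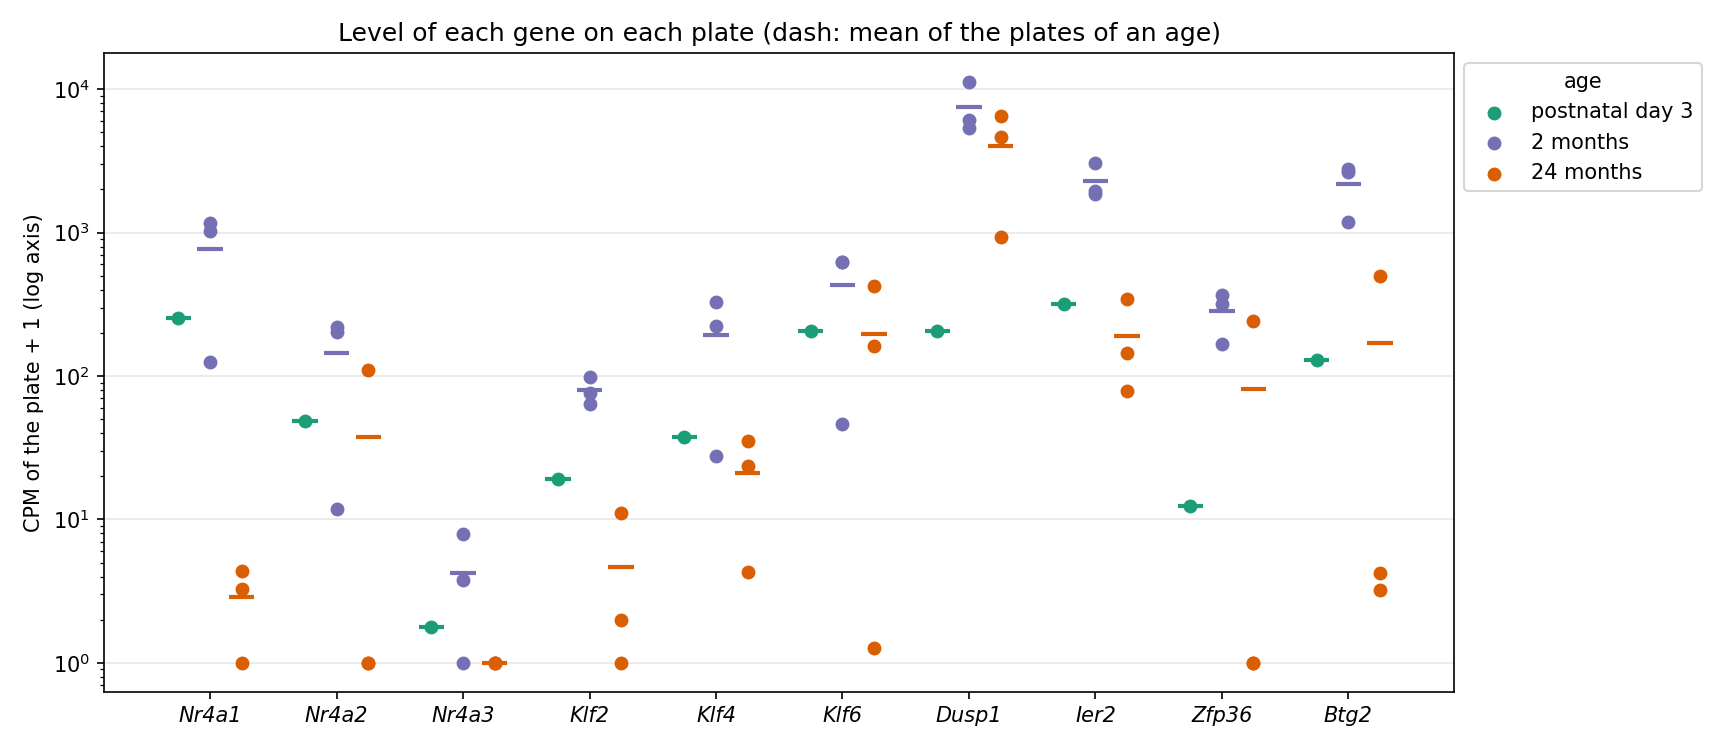
CPM of each plate plus 1 (log axis) for the 10 genes, with postnatal day 3, 2 months and 24 months from left to right, 1 point per plate and a dash at the mean of an age. Nr4a1 sits near the bottom at 24 months, with 0 to 3.37 CPM, while Dusp1 at 24 months, with 932 to 6484 CPM, reaches into the range of 2 months.

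Among the receptors, Nr4a1 (Nur77; chr15:101254269-101274795, plus strand, GRCm38) had 254.7 CPM at postnatal day 3. It had 123.7, 1170.0 and 1020.7 CPM on plates 1, 3 and 4 of 2 months, and 2.28, 0 and 3.37 CPM on plates 2, 5 and 12 of 24 months. Every plate of 24 months lay below every other plate, and plate 1 stood apart from the other plates of 2 months, below postnatal day 3. The log2 fold of -8.07 for 24 against 2 months met the size rule, with means of 1.88 ± 1.72 and 771 ± 566 CPM (SD, 3 plates each). It was smaller with a limit of 500 genes (-5.06) and with no cell filter (-5.23), and larger with 2000 genes and 200000 reads (-10.43), which leaves 1 cell of 24 months. Each cell thinned to 50000 reads, Nr4a1 was read in 19.1% of cells at postnatal day 3, in 47.4% at 2 months and in 1 of 15 cells (6.67%) at 24 months. Its 86 reads at 24 months, without thinning, came from 2 cells.

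Nr4a2 (Nurr1; chr2:57106830-57124003, minus strand) had 47.9 CPM at postnatal day 3, 10.9, 217.15 and 201.2 CPM on the plates of 2 months and 0, 109.8 and 0 CPM on those of 24 months. Plate 5 of 24 months held 1177 reads of it, 97.4% of them in 1 cell, and alone lay inside the range of 2 months. The fold of -1.94 for 24 against 2 months did not meet the rule. Nr4a3 (Nor1; chr4:48045153-48086447, plus strand) stayed under 10 CPM everywhere, with 0.769 CPM at postnatal day 3, 0, 2.76 and 6.93 CPM at 2 months, and no read at 24 months. Set against the level that 3 reads per plate would give at 24 months, the mean of 2 months was 14.1-fold higher. This value is no lower limit of the difference, since it counts reads and not cells. After thinning, Nr4a3 was read in 4.55% of cells at 2 months. At such a share, the 15 cells of 24 months can hold none without any difference between the ages. Plate 1 of 2 months also had no read.

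The Klf factors differed among themselves. Klf2 (chr8:72319033-72321656, plus strand), best known from endothelium under flow, had 18.1 CPM at postnatal day 3, 97.3, 62.4 and 75.4 CPM on the plates of 2 months, and 10.1, 0 and 0.975 CPM on those of 24 months. No plates overlapped between ages, and plate 1 was not low here. The log2 folds all met the rule: -4.08 for 24 against 2 months, 2.05 for 2 months against postnatal day 3 and -2.03 for 24 months against postnatal day 3. The 10 endothelial markers summed to 25.5 CPM at postnatal day 3, 0.146 to 5.55 CPM at 2 months and 0 CPM at 24 months, where all 10, Pecam1 and Cdh5 among them, were at 0. Their part in the Klf2 level was not tested.

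Klf4 (chr4:55527143-55532466, minus strand), one of the reprogramming factors, had 36.4 CPM at postnatal day 3, 26.7, 220.8 and 326 CPM on the plates of 2 months and 3.32, 22.5 and 34.4 CPM on those of 24 months. Plate 1 of 2 months lay below plate 12 of 24 months, so the fold of -3.19 did not meet the rule. Klf6 (chr13:5861482-5870394, plus strand), a factor induced by wounding and stress, had 205.9 CPM at postnatal day 3, 45.4, 628 and 620.2 CPM at 2 months and 425, 0.280 and 161.1 CPM at 24 months. Its plates overlapped in every comparison, and its fold between 24 months and postnatal day 3 was -0.07. On plate 12, all 1817 reads of Klf6 were in 1 cell.

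Of the feedback genes, Dusp1 (MKP-1; exons at chr17:26505590-26508519, minus strand) had 206.2 CPM at postnatal day 3, 11220.3, 6065 and 5369 CPM on plates 1, 3 and 4 of 2 months and 6484, 932 and 4669 CPM on plates 2, 5 and 12 of 24 months. All adult plates lay above postnatal day 3, and plate 2 of 24 months lay inside the range of 2 months. The log2 fold was 5.19 for 2 months against postnatal day 3 and 4.28 for 24 months against postnatal day 3, a ratio of 19.5, and both met the rule. For 24 against 2 months it was -0.91, which did not. On plate 5, the lowest adult plate, 2 of 5 cells held all 9992 reads of Dusp1.

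Ier2 (chr8:84661331-84662852, minus strand) had 315 CPM at postnatal day 3, 3063, 1852 and 1955 CPM at 2 months and 143.1, 77.7 and 342 CPM at 24 months. The plates of 2 months lay above all others, and those of 24 months overlapped with postnatal day 3. The fold met the rule for 24 against 2 months (-3.60) and for 2 months against postnatal day 3 (2.86). On each plate of 24 months, all reads of Ier2 came from 1 cell.

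Zfp36 (tristetraprolin; chr7:28376784-28380253, minus strand) had 11.4 CPM at postnatal day 3, 166.2, 315 and 368 CPM at 2 months and 241.004, 0 and 0 CPM at 24 months. Plate 2 of 24 months reached into the range of 2 months through 1 cell with 99.9% of the plate's reads of the gene. Its fold met the rule for 2 months against postnatal day 3 (4.52) but not for 24 against 2 months (-1.80). Btg2 (chr1:134075170-134079120, minus strand) had 128.9 CPM at postnatal day 3, 1177, 2643 and 2777 CPM at 2 months and 499.7, 3.27 and 2.22 CPM at 24 months. The plates of 2 months lay above all others, and the folds of -3.70 (24 against 2 months) and 4.08 (2 months against postnatal day 3) met the rule. At 24 months nearly all its reads were in cell 5 of plate 2, with 1757 CPM, and without plate 2 the fold was -9.20.

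Levels of different genes were compared per kilobase of exon. At postnatal day 3 the order was Ier2 (207.1 CPM per kb), Dusp1 (103.6), Nr4a1 (95.1), Klf6 (48.7), Btg2 (46.98), Nr4a2 (12.8), Klf4 (12.03), Klf2 (9.82), Zfp36 (4.09) and Nr4a3 (0.134). At 2 months it was Dusp1 (3795 CPM per kb), Ier2 (1504), Btg2 (802), Nr4a1 (287.97), Klf6 (102.045), Zfp36 (101.4), Klf4 (63.1), Klf2 (42.4), Nr4a2 (38.2) and Nr4a3 (0.564). Dusp1, Ier2 and Btg2 did not overlap with each other over the plates of 2 months, nor did Nr4a2 with Nr4a3. All other neighbours in that order overlapped. At 24 months Dusp1 led with 2024 CPM per kb, and its plates did not overlap with those of Ier2 (123.35 CPM per kb). From Ier2 down, each neighbour overlapped with the next, and Nr4a1, with 0.702 CPM per kb, stood below all members except Nr4a3.

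In each comparison, 9 of the 10 genes reached 10 CPM, through the age at which they are high. For 24 against 2 months, 4 of these 9 were lower by the size rule (Nr4a1, Klf2, Ier2 and Btg2) and 0 were higher, beside 29.6% of all tested genes lower and 1.54% higher. The median log2 fold was -3.19 for the 9 members and -1.56 for all 8804 genes tested. Cells of 24 months held fewer genes. After thinning, the median was 1751.5 genes per cell at postnatal day 3, 1114, 1269.5 and 1277 on plates 1, 3 and 4, and 794, 837 and 930 on plates 2, 5 and 12. Among genes read in 30% of cells or more at the higher age, 4 of 8 members were lower, beside 19.7% of genes, whose median fold was -0.07.

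The count depended on plate 1, on the kind of cell and on the cell filter. Leaving out plate 1 raised it to 8 of 9 members, beside 48.1% of all genes, with Dusp1 the exception. Among cells with no read of the cartilage gene Cnmd it was 2 of 9 (Nr4a1 and Ier2), beside 9.86%. Klf2 and Btg2 had folds of -4.69 and -2.61 in these cells, with plates that overlapped. With a limit of 500 genes, which leaves 65 cells of 24 months, it was 8 of 10 with Dusp1 included, beside 17.5%. Scaling by TMM factors in place of totals moved the median fold of all genes by -0.29 and kept the 4 calls, adding Klf4. It moved that median by 0.11 for 2 months against postnatal day 3 and by -0.11 for 24 months against postnatal day 3.

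For 2 months against postnatal day 3, 5 of 9 members were higher (Klf2, Dusp1, Ier2, Zfp36 and Btg2) and 0 lower, beside 9.98% of all genes higher and 27.7% lower. All 4 feedback genes, 1 of 3 Klf factors and 0 of 3 receptors met the rule. The median log2 fold was 2.36 for the 9 members, against -0.23 for all 9656 genes tested. Among genes read in 30% of cells or more at the higher age, 5 of 8 members were higher, beside 13.1%. Plate 1 kept Nr4a1, Nr4a2, Klf4 and Klf6 from the rule, and without it 9 of 9 were higher, beside 18.8% of all genes.

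For 24 months against postnatal day 3, 2 members were lower (Nr4a1, with a fold of -6.47, and Klf2) and 1 was higher (Dusp1), beside 53.6% of all genes lower and 2.59% higher. All plates in this comparison except plate 5 are of batch 3. Within batch 3, Nr4a1, Nr4a2 and Klf2 were lower and Dusp1 was again higher, beside 61.6% and 5.54% of all genes. Without plate 2 the lower members were 5, beside 63.4%, and without plate 12 they were 4, beside 62.8%, with Dusp1 higher in both cases. With at least 500 genes and with no cell filter, Nr4a1, Nr4a2 and Klf4 were lower, beside 37.3% and 35.95% of all genes. Klf2 did not meet the rule with either filter. In 2 further settings Nr4a1 and Klf2 could not be called. Among cells with no Cnmd read they stayed under 10 CPM at both ages, with folds of 1.53 and -1.01. Of the 7 members that reached 10 CPM there, 0 were lower, beside 50.7% of all genes. Among genes read in 30% of cells or more at the higher age, 3 members were tested, Nr4a1 and Klf2 not among them. Of these, 0 were lower, beside 35.8% of such genes. Dusp1 stayed higher in both settings, beside 3.07% and 11.3% of genes. The plates of 2 months carry batches 4, 5 and 1 and share none with another age, so at 2 months age cannot be told apart from batch. The 3 comparisons share plates and are not independent of each other.

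**Figure D2:**
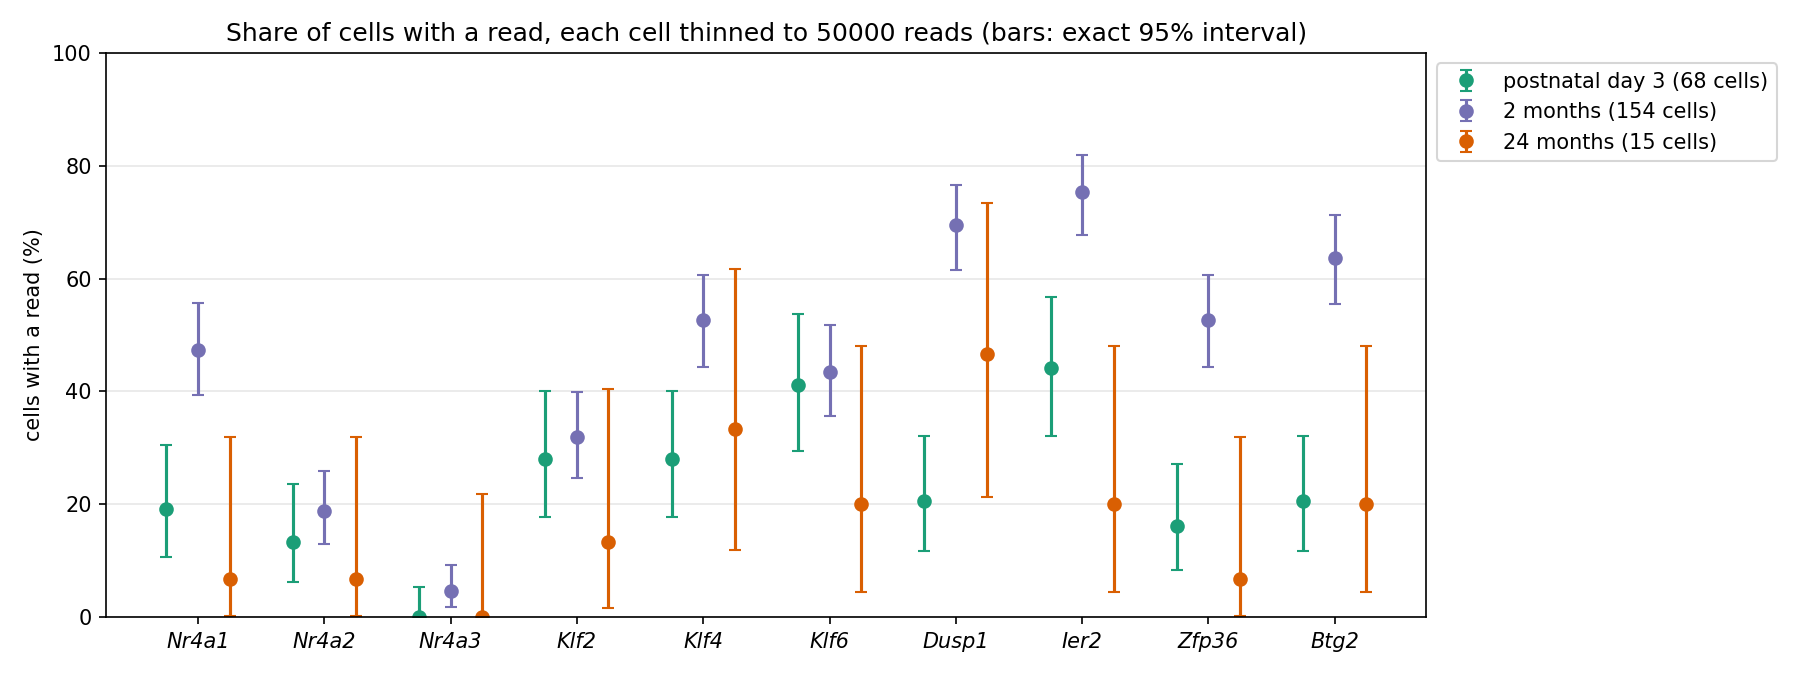
Percent of passing cells with at least 1 read of each gene after thinning to 50000 reads per cell, for postnatal day 3, 2 months and 24 months from left to right, with exact 95% binomial intervals. Shares of Klf2 and Klf6 lie close together at postnatal day 3 and 2 months, while those of Dusp1, Zfp36 and Btg2 lie far apart.

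The number of cells with a read differed for some members and not for others. At 24 months the shares were 6.67% for Nr4a1, 20% for Ier2, 6.67% for Zfp36 and 20% for Btg2, against 47.4%, 75.3%, 52.6% and 63.6% at 2 months. The exact 95% binomial intervals of these 4 genes did not overlap between the ages. They are 4 of the 8 members read in 30% of cells or more at either age, with 0 members higher, beside 10.2% of all such genes lower and 4.01% higher. Dusp1 was in 46.7% of cells at 24 months (21.3% to 73.4%) and in 69.5% at 2 months (61.6% to 76.6%), with overlapping intervals, as for Klf2, Klf4 and Klf6. Zfp36 thus differed in its share of cells while its plate levels overlapped, and Klf2 differed in its level while its shares overlapped. The intervals cover counting error only, since cells of an age are not separate animals and PCR copies are not separate molecules. Nr4a3 had a read in 0 of 15 cells of 24 months, which allows up to 20% of cells with a read by a limit of 3 cells and 21.8% by the exact interval.

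Between 2 months and postnatal day 3, the shares of 6 of those 8 members lay apart, all higher at 2 months, beside 4.87% of such genes higher and 41.6% lower. Dusp1 was in 69.5% of cells at 2 months and 20.6% at postnatal day 3, Btg2 in 63.6% and 20.6%, and Zfp36 in 52.6% and 16.2%. Nr4a1 was in 47.4% and 19.1%, Ier2 in 75.3% and 44.1%, and Klf4 in 52.6% and 27.9%. These shares ran with the direction of the plate levels.

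Klf6 and Klf2 were read in nearly as many cells at both ages. Klf6 was in 43.5% of cells at 2 months and 41.2% at postnatal day 3, and Klf2 in 31.8% and 27.9%, differences of 2.33 and 3.88 percentage points with overlapping intervals. In the thinned cells with a read of it, the median level of Klf6 was 773 CPM at 2 months and 377 CPM at postnatal day 3. The median of Dusp1 in such cells was 4624 CPM at 2 months and 1028 CPM at postnatal day 3, so both its share of cells and its level per cell were higher.

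**Figure D3:**
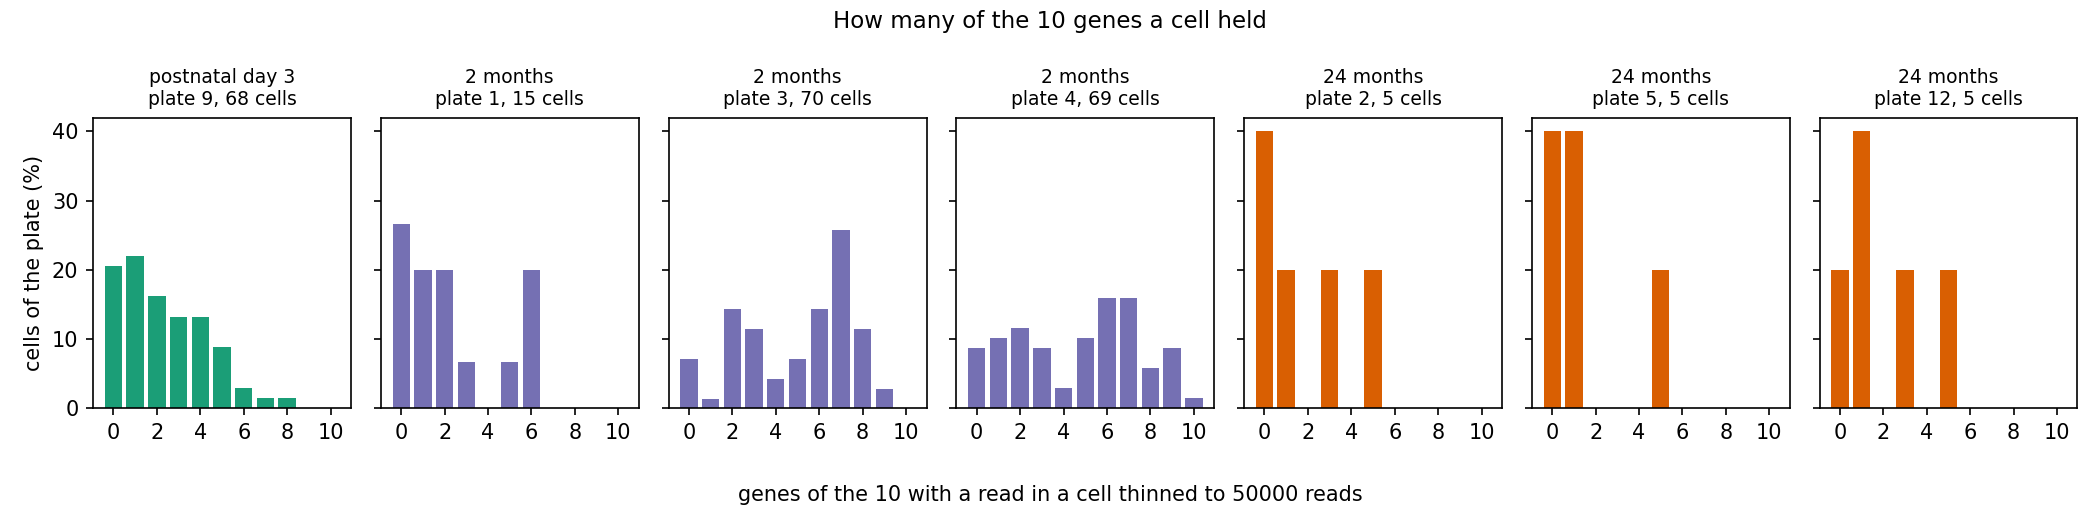
Percent of the cells of a plate (vertical axis) by how many of the 10 genes had a read after thinning to 50000 reads (horizontal axis), for each plate with its number of cells. Plates 3 and 4 of 2 months have most of their cells at 5 or more genes, whereas plate 9 of postnatal day 3, plate 1 and the plates of 24 months have most at 2 or fewer.

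The genes were read in company. The median number of members per cell was 2 at postnatal day 3, 2, 6 and 5 on plates 1, 3 and 4 of 2 months, and 1 on each plate of 24 months. Cells with 5 or more members were 14.7% at postnatal day 3 (7.28% to 25.4%), 56.5% at 2 months (48.3% to 64.5%) and 20% at 24 months (4.33% to 48.1%), where the 3 such cells lay on 3 different plates. On plates 3 and 4 few cells held 4 members (3 and 2 cells), between larger groups at lower and at higher numbers. Without thinning, 11 cells of postnatal day 3, 10 of 2 months and 3 of 24 months had no read of any member.

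**Figure D4:**
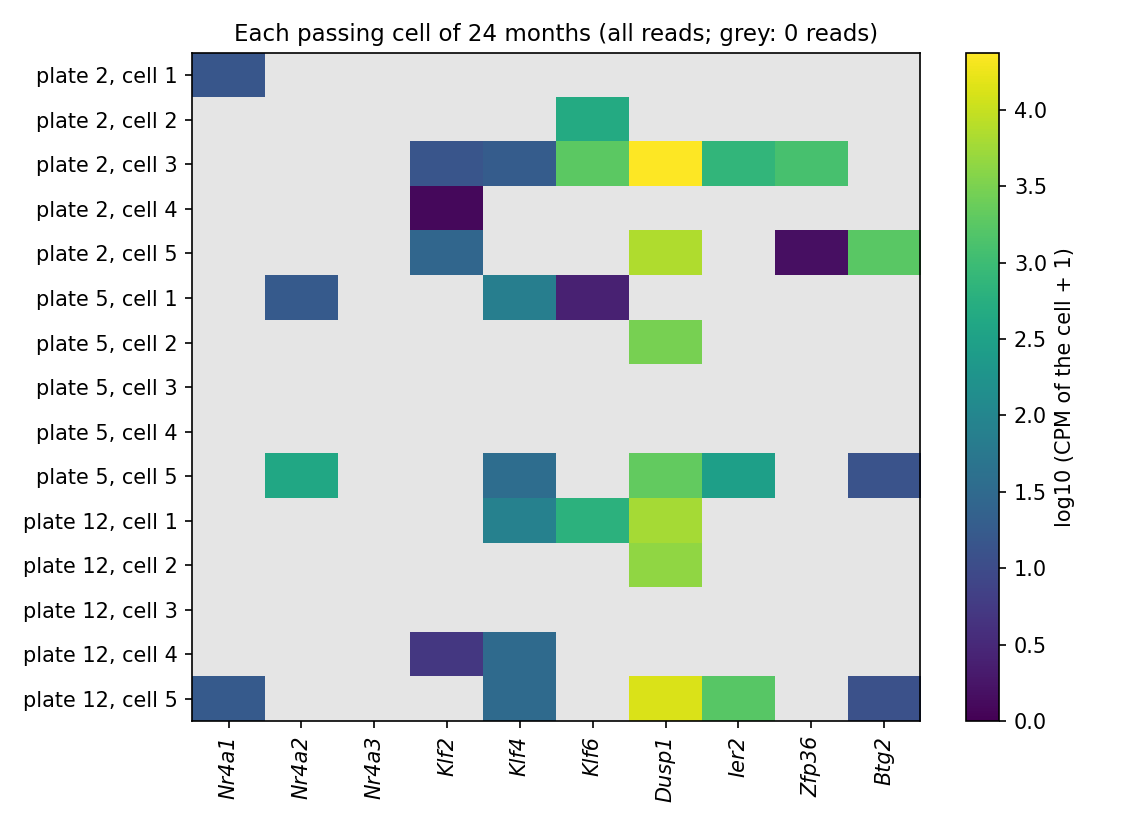
Each of the 15 passing cells of 24 months (rows, by plate) against the 10 genes (columns), colored by log10 of the cell's CPM plus 1 from all reads, with grey for 0 reads. Dusp1 is bright in 7 cells, and most other high values sit in a few of those same cells.

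Few cells carried the levels of 24 months. Dusp1 was read in 7 of the 15 cells, at 2104 to 23527 CPM, and was the highest of the members, by CPM, in all 7. It was the highest in 55.3% of the cells with a Dusp1 read at 2 months and in 85.7% at postnatal day 3. Cell 3 of plate 2 held 23527 CPM of Dusp1, 1871 CPM of Klf6, 1265 CPM of Zfp36 and 752 CPM of Ier2, but no read of Nr4a1 or Btg2 among its 4012754 reads. Cell 5 of plate 12 held 13452 CPM of Dusp1 and 1692 CPM of Ier2, with Nr4a1 at 16.6 CPM and Btg2 at 10.9 CPM. Cell 5 of plate 5 held 2104 CPM of Dusp1, 396 CPM of Nr4a2 and 287.96 CPM of Ier2. These were the 3 cells with Ier2, all held Dusp1, and in them Nr4a1 was at or near 0.

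At 2 months the members varied together between cells. Spearman's rho between a pair of members over the cells of a plate had a median of 0.26 on plate 3 (70 cells) and 0.42 on plate 4 (69 cells) over 45 pairs. At postnatal day 3 (68 cells) it was 0.18 over the 36 pairs with reads. For the 8 members read in 20% of 2-month cells or more, the median over 28 pairs was 0.314 and 0.472 on plates 3 and 4, beside 0.042 and 0.044 for all pairs of 1691 such genes. At postnatal day 3 the same 28 pairs had a median of 0.184, beside 0.017 for all pairs. Cells were thinned to the same depth, but they share a plate, and cells with more genes held more members (rho 0.33 and 0.37 on plates 3 and 4). The number of members also ran against the spike-in share of a cell's reads (rho -0.41 and -0.45), and with its reads on plate 4 (0.35) but not on plate 3 (0.02). The part of these in the rho between members was not tested. These values are descriptions.

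**Figure D5:**
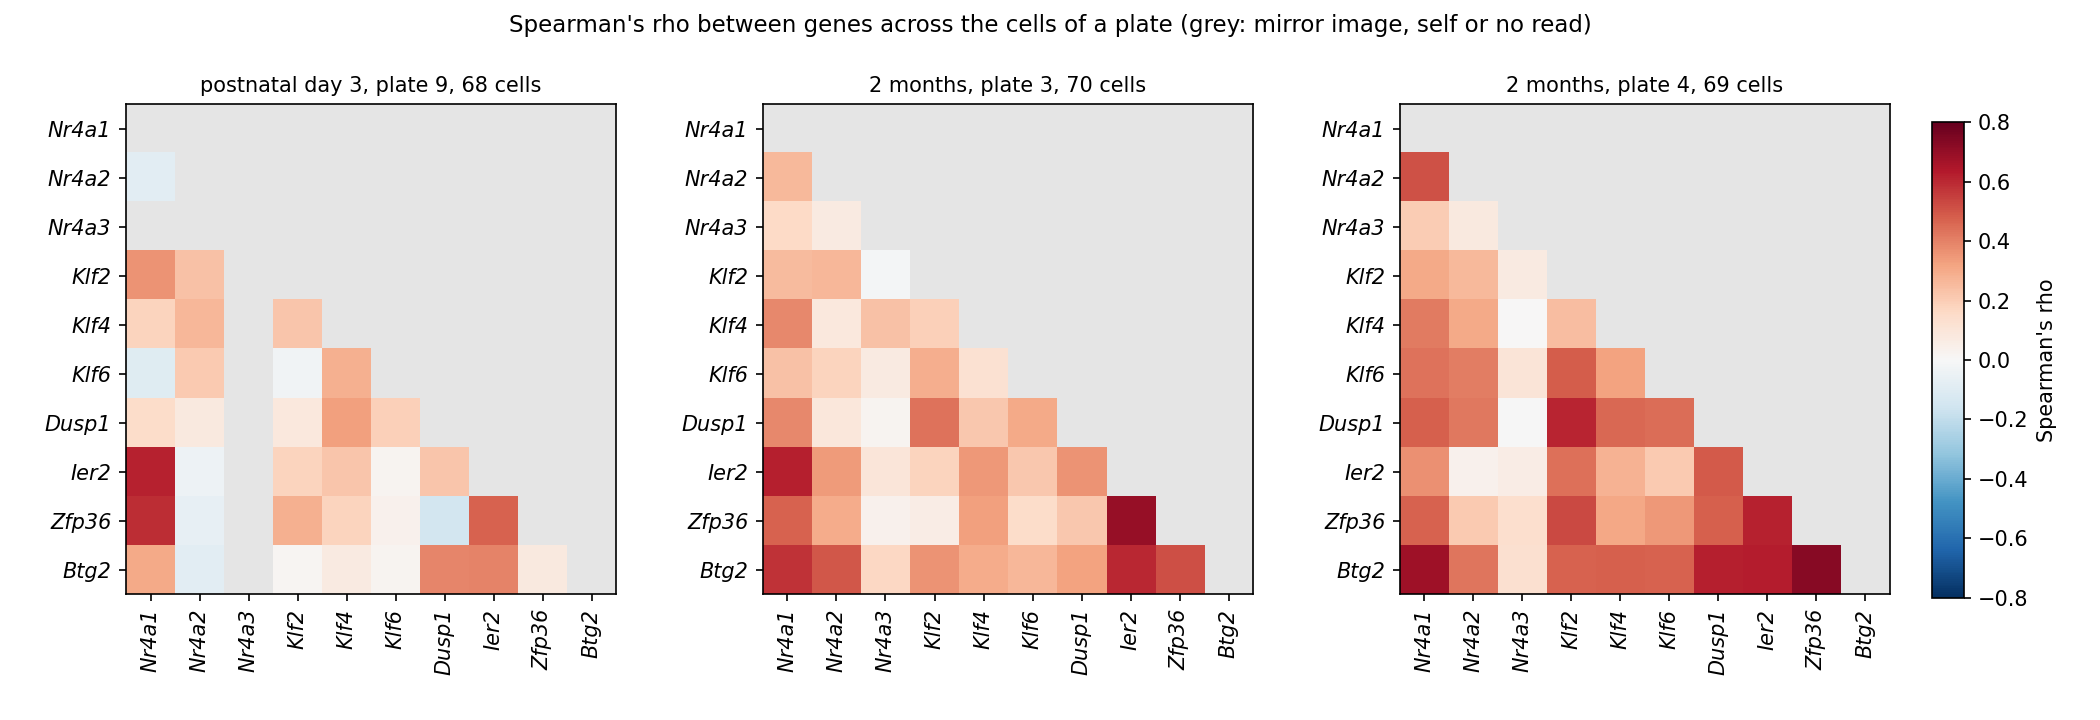
Spearman's rho for each pair of the 10 genes across the cells of plate 9 (postnatal day 3) and plates 3 and 4 (2 months), each cell thinned to 50000 reads; red is positive, blue negative, and grey is the mirror image or a gene with no read. Pairs of Ier2, Zfp36, Btg2 and Nr4a1 are among the darkest on plates 3 and 4, and at postnatal day 3 the pairs of Nr4a1 with Ier2 and Zfp36 are darkest.

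The pair with the highest rho on each plate lay among Ier2, Zfp36, Btg2 and Nr4a1. Dusp1, also a feedback gene, had a rho of 0.36 with Ier2, 0.22 with Zfp36 and 0.32 with Btg2 on plate 3. On plate 4 these were 0.49, 0.48 and 0.62, and at postnatal day 3 0.22, -0.15 and 0.39. The -0.15 was the lowest rho of the 36 pairs there. Ier2 and Zfp36 had 0.70 on plate 3, 0.61 on plate 4 and 0.47 at postnatal day 3, and Nr4a1 and Ier2 had 0.62, 0.37 and 0.62. Nr4a1 and Btg2 had 0.58, 0.68 and 0.30, whereas Zfp36 and Btg2 had 0.52 and 0.73 at 2 months and 0.08 at postnatal day 3.

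Outside the set, the genes most like a member were found by mean rho over plates 3 and 4. For Ier2 they were the AP-1 subunits Junb, Fos and Fosb (0.71, 0.66 and 0.62), for Zfp36 Fos, Junb and Neat1 (0.69, 0.64 and 0.63), and for Btg2 Junb and Neat1 (0.62 each). For Nr4a1 they included Egr1 and Junb, for Klf4 Junb, Dnajb1 and Egr1, for Dusp1 Egr1 and Junb, and for Klf2 Trp53inp2, Sap18b and Egr1. Klf6 stood nearest to the sterol genes Hmgcs1 and Insig1 (0.40 and 0.39) and to the stress factor Atf3 (0.40). At postnatal day 3, which the choice did not use, the rho of a member with the gene most like it at 2 months varied widely. It was 0.68 for Ier2 with Junb, 0.54 for Nr4a1 with Egr1, 0.43 for Btg2 with Junb and 0.39 for Zfp36 with Fos. For Klf4 with Junb and Klf6 with Hmgcs1 it was 0.19, for Dusp1 with Egr1 0.15 and for Klf2 with Trp53inp2 -0.04. Of further pairs, Ier2 and Fos had 0.75, Zfp36 and Neat1 0.11 and Btg2 and Neat1 0.21.

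Within an age, members were also compared between cells with a read of Cnmd, which encodes the cartilage matrix protein chondromodulin, and cells without it. How many of all genes had the larger share in cells with Cnmd was not counted. At 2 months the median was 6 members in cells with a Cnmd read and 2 in the 42 cells without, and 65.2% and 33.3% held 5 or more. The medians were 3 and 1 on plate 1, 6 and 4.5 on plate 3, and 6 and 1.5 on plate 4. Cells with Cnmd also held more genes on each plate, with medians of 1408 and 950.5, 1376.5 and 1020.5, and 1305 and 1109.5 genes. Zfp36 was in 66.1% of 2-month cells with Cnmd and 16.7% without, Klf6 in 51.8% and 21.4%, and Dusp1 in 74.1% and 57.1%.

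At postnatal day 3 the cells with Cnmd (42) and without it (26) held nearly equal numbers of genes, with medians of 1751.5 and 1762. Nr4a1 was in 13 cells with Cnmd and 0 without, Zfp36 in 11 and 0, and Ier2 in 26 and 4. Klf6 ran the other way, in 13 of the 42 cells with Cnmd and 15 of the 26 without. Nr4a2 (4 and 5 cells) and Dusp1 (7 and 7 cells) also had the larger share in cells without Cnmd.

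No cell of 24 months had a read of Cnmd. The summed level of 6 cartilage markers was 71386 CPM at postnatal day 3, 52824 to 72215 CPM at 2 months and 298 to 3766 CPM at 24 months, where Cnmd, Matn3 and Col9a1 were at 0. Its part in the lower members of 24 months was not tested. Among cells without Cnmd, Nr4a1 and Ier2 met the rule for 24 against 2 months, beside 9.86% of all genes lower. For 24 months against postnatal day 3, 7 members reached 10 CPM in these cells. Dusp1 was higher (fold 4.13) and 0 were lower, beside 3.07% of all genes higher and 50.7% lower. The Nr4a1 fold of 1.53 there is no call, since the gene stayed under 10 CPM at both ages, with 1.88 CPM at 24 months.

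Other early genes are set beside the same shares of all genes, 29.6% lower at 24 than at 2 months and 9.98% higher at 2 months than at postnatal day 3. Of 12 AP-1 and Egr genes with 10 CPM or more, 6 were lower at 24 than at 2 months (Fos, Fosb, Fosl1, Jun, Junb and Egr1) and 0 higher, and 8 of 12 were higher at 2 months than at postnatal day 3. Egr1, a zinc finger factor that many signals induce together with Nr4a1, averaged 4.41 CPM at 24 months and 1558 CPM at 2 months (log2 fold -8.17). Fos averaged 599.6 CPM at 24 months and 3627 CPM at 2 months (-2.59), and Junb 138.1 and 4043 CPM (-4.86). Fos had 1736, 10.4 and 52.4 CPM on plates 2, 5 and 12 of 24 months. Atf3 did not meet the rule between these ages (618 and 436 CPM, log2 fold 0.50). Its reads at 24 months were on plate 2 only, with 1855 CPM there. Of 19 other early response and feedback genes, 8 were lower at 24 than at 2 months and 0 higher. Socs3, a brake on cytokine receptors, was among them (254.7 and 1942 CPM, log2 fold -2.93), with reads at 24 months on plate 2 only. At 2 months against postnatal day 3, 10 of 20 such genes were higher and 1 was lower.

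Other Klf genes gave mixed counts. Of 9, 1 (Klf9) was higher and 2 (Klf11 and Klf14) lower at 2 months than at postnatal day 3, and of 7, 3 were lower at 24 than at 2 months. Klf13 averaged 632 CPM at 24 months and 79.6 CPM at postnatal day 3 (log2 fold 2.97), and Klf9, a glucocorticoid-responsive factor, 249.7 and 32.7 CPM (2.89), and both met the rule. Of the activators upstream (CREB, SRF, MEF2 and MAP kinase genes), 2 of 18 were higher and 6 lower at 2 months than at postnatal day 3, and 8 of 17 were lower at 24 than at 2 months. Mef2c belongs to a family that drives Nr4a1 and Klf2 in other cells. It was higher at 24 months than at postnatal day 3 (332 and 46.2 CPM, log2 fold 2.82). In the same comparison, Mef2d of this family was lower (log2 fold -4.35), and Mef2a did not meet the rule (0.52). The part of these genes in the levels of Nr4a1 and Klf2 was not tested. Of the protein partners, such as retinoid X receptors and CCR4-NOT subunits, 4 of 10 were lower at 24 than at 2 months. At 2 months against postnatal day 3, 1 of 11 partners was higher and 5 were lower. For 24 months against postnatal day 3, lower genes were 2 of 10 AP-1 and Egr genes, 7 of 15 other early genes, 6 of 9 other Klf genes, 12 of 17 activators and 6 of 10 partners, beside 53.6% of all genes. The higher ones among these lists were Klf9, Klf13 and Mef2c.

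Of 12 heat shock genes, 4 were higher and 0 lower at 2 months than at postnatal day 3, beside 9.98% of all genes higher and 27.7% lower. At 24 against 2 months 7 were lower and 0 higher, beside 29.6% and 1.54%. At 24 months against postnatal day 3, 6 were lower, near the 53.6% of all genes. Their summed level was 5288 CPM at postnatal day 3, 9221 to 10707 CPM at 2 months and 1912 to 5862 CPM at 24 months. Dnajb1, a heat-inducible cochaperone, averaged 94.9 CPM at postnatal day 3 and 1504 CPM at 2 months and had no read at 24 months. The members are known to be induced while tissue is digested and sorted, and the labels do not give the time this took. The part of handling in the differences between ages was not tested.

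The median mitochondrial share of reads was 0.342% at postnatal day 3, 1.27%, 0.845% and 1.03% on the plates of 2 months and 1.39%, 0.945% and 0.142% on those of 24 months. The 14 markers of blood and immune cells summed to 6.06 CPM at postnatal day 3, 24.1 to 33.2 CPM at 2 months and 0 CPM at 24 months, with all 14, Ptprc among them, at 0 there. The 8 mural and muscle markers summed to 763 CPM at postnatal day 3, 235.6 to 417 CPM at 2 months and 98.4 to 824 CPM at 24 months. Of these, Acta2, an actin of smooth muscle, averaged 338 CPM at postnatal day 3, 0.0593 CPM at 2 months and 0 CPM at 24 months, and Rgs5, Myh11, Mcam, Myf5 and Pax7 were also at 0 at 24 months. The other members of the list were Cspg4 and Des. Cspg4 averaged 412 CPM at postnatal day 3, 337 CPM at 2 months and 391 CPM at 24 months. Des averaged 0, 0.0502 and 58.8 CPM, with reads at 24 months on plate 5 only. The part of these cell types in the members' levels was not tested. Itgav and Cd200, which mark mouse skeletal stem cells in sorts, together had 45.4 CPM at postnatal day 3, 266.7 to 343 CPM at 2 months and 290 to 1630 CPM at 24 months. The 5 surface genes that such sorts exclude had 25.1 CPM at postnatal day 3, 0.146 to 1.68 CPM at 2 months and 0 CPM at 24 months.

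The promoters of the receptors, of Dusp1 and of Btg2 are shown because they hold the most copies of a motif of the cAMP response. RefSeq gave a promoter on GRCm38.p6 for 9 of the 10 genes. In the 250 bases upstream of the start, TGACG on either strand, the short cAMP response element, occurred in 7 of the 9, and in 17.9% of 27018 promoters. Each receptor promoter held 4 copies, Dusp1 3, Btg2 2, and Klf2 and Klf4 1 each. The full palindrome TGACGTCA, which holds a short element on both strands, was in Dusp1 and Btg2 (2 of 9, and 1.62% of promoters). Klf6, which has no copy, is shown for contrast. Its levels overlapped in every comparison, and so did those of Nr4a2, which has 4 copies. Windows run 5′ to 3′ on the strand of the gene, and capitals mark TGACG or its complement CGTCA.
Nr4a1 (chr15:101266596-101266845, plus strand): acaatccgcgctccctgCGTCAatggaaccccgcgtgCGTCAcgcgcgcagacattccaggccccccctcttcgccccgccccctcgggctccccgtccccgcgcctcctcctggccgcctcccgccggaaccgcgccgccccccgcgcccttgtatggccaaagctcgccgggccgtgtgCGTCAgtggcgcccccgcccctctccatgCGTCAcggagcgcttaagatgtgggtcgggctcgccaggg.
Nr4a2 (chr2:57124004-57124253, minus strand): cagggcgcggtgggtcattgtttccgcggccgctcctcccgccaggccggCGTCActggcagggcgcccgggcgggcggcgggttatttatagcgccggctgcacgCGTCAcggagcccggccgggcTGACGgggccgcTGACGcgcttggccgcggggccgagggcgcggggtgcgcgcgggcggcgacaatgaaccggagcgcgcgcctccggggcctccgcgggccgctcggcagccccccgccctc.
Nr4a3 (chr4:48045055-48045304, plus strand): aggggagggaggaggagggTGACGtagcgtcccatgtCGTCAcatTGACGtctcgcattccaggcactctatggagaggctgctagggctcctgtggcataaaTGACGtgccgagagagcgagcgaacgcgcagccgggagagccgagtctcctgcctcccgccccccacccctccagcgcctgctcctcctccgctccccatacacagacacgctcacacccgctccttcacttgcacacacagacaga.
Dusp1 (chr17:26508473-26508722, minus strand): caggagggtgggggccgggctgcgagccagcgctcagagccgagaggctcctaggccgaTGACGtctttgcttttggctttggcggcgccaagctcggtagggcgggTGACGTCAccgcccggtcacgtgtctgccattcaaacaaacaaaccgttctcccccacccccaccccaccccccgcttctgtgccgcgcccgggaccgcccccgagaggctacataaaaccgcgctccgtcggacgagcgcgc.
Btg2 (chr1:134079156-134079405, minus strand): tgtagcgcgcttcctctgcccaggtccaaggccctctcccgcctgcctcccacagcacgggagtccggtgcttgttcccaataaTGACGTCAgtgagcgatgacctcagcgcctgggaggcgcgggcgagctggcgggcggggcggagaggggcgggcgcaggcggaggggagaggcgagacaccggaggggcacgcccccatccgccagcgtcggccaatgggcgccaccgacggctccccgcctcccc.
Klf6 (chr13:5861239-5861488, plus strand): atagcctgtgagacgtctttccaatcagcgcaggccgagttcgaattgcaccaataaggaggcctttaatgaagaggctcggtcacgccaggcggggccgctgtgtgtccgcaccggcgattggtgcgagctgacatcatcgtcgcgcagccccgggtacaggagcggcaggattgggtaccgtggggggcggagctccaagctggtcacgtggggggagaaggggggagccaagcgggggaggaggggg.

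The window of Zfp36 also held no TGACG, but it held the serum response element core (CArG box), which is in 1.40% of promoters. The AP-1 element TGANTCA was in 0 of the 9 windows and 6.87% of promoters, the GC box GGGCGG in 9 of 9 and 32.9%, and TATAA in 3 of 9 and 23.5%. The 3 receptors, with 4 copies each, had different levels: 287.97 CPM per kb for Nr4a1 at 2 months, 38.2 for Nr4a2 and 0.564 for Nr4a3. Dusp1 and Btg2, the genes with the full palindrome, were both higher at 2 months than at postnatal day 3 and averaged 4028 CPM (Dusp1) and 168.4 CPM (Btg2) at 24 months. Their log2 folds for 24 against 2 months, -0.91 and -3.70, were closer with looser filters: -1.57 and -1.89 with a limit of 500 genes, -1.58 and -1.73 with no filter. With 2000 genes and 200000 reads they were -12.42 and -11.70. There the 1 cell of 24 months had no read of either gene, so these folds depend on the 2-month levels alone. A match of letters is a description of the window and not a binding site.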

How the data were processed

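The deposited values are RSEM expected counts per gene and well. Per the submitters' processing notes the tools were bcl2fastq 2.18, STAR 2.4 and RSEM 1.2.21 on build GRCm38.p6. The annotation release is not given in the sources used here. Of the values above 0, 15.1% were not whole, and all were rounded. The 92 spike-in rows stayed out of totals, as did 1 column with no matching sample. A column was matched to its sample by plate, well, age and index.

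Plate sums of the passing cells gave CPM, and plates of an age were averaged with equal weight. Cells held 93214 to 2246142 gene reads at postnatal day 3, 62919 to 3563660 at 2 months and 1131874 to 5994911 at 24 months. Shares of cells and rho used cells thinned to 50000 random reads. Coordinates and exon lengths came from GENCODE annotation of GRCm38, in which no exon of a member overlapped another gene. The size rule was tested on simulated plates, filled with cells drawn from those of 2 months and with more cells than a plate of 24 months. This does not show how the rule behaves where single cells set the levels. Named genes are the 10 members, the 3 genes most like each (1 gene among these is not reported here), and, as examples from the other lists, Egr1, Fos, Junb, Dnajb1 and some of the 3 genes with the highest CPM in a list. Atf3, marker genes and genes behind small counts were named after their values were seen. Members and lists were chosen with earlier results of these data known. Alternatives changed the cell filter, scaling, pseudocount, rounding, depth and plates. The software was Python 3.11.15 with pandas 2.3.3, numpy 2.4.6, scipy 1.17.1 and matplotlib 3.10.9, and R 4.3.3 with edgeR 4.0.16 for TMM factors.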

Additional observations from a re-analysis of the deposited data

Results flagged for a closer look

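Wells that did not pass were left out of every comparison and still held reads of the 10 genes. At least 1 read was found in 31 such wells of 24 months (11.4%, exact 95% binomial interval 7.85% to 15.7%), in 31 of 2 months (23.3%, 16.4% to 31.4%) and in 1 of the 27 of postnatal day 3 (3.70%, 0.0937% to 18.97%). At 24 months these wells held 33.02 CPM of Nr4a1 in 4 wells, 788 CPM of Btg2 in 12 and 655 CPM of Dusp1 in 12, and no read of Nr4a2 or Nr4a3. At 2 months they held 61.8 CPM of Nr4a1, 563 CPM of Btg2 and 758 CPM of Dusp1. Depth differed widely, with a median of 3337 gene reads per well at 24 months and 33428 at 2 months, so the shares are not compared.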

How the results depend on the processing

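No paired analysis was possible because plate numbers pair no samples across ages and no result comes from a test. For 24 against 2 months, the count of lower members (4, beside 29.6% of all genes) became 8 with at least 500 genes (17.5%). With no cell filter it was 7 (16.3%), and Btg2 was no longer among them. With at least 2000 genes and 200000 reads (1 cell of 24 months) it was 8, beside 69.98% of all genes. Among cells with no Cnmd read it was 2 (9.86%). Leaving out 1 plate at a time gave 4 to 8, with 8 without plate 1 (48.1%) and 6 without plate 2 (38.9%). For 2 months against postnatal day 3, the count of higher members (5, beside 9.98%) became 9 with at least 2000 genes and 200000 reads (15.4%). Without 1 plate it was 5 to 9, with 9 without plate 1 (18.8%). For 24 months against postnatal day 3, higher members (1, beside 2.59% of all genes) became 2 with at least 500 genes (6.35%). With no filter they were 3 (7.63%). Lower members (2, beside 53.6%) became 8 with at least 2000 genes and 200000 reads, beside 80.98% of all genes. They were 4 in cells of 1000 to 1700 genes (37.4%). With at least 500 genes and with no filter they were 3 (37.3% and 35.95%), with Klf2 not among them. They were 0 among cells with no Cnmd read (50.7%) and 0 among genes in at least 30% of cells (35.8%). Without 1 plate they were 3 to 5, with 5 without plate 2 (63.4%) and 4 without plate 12 (62.8%). In that comparison 2 folds changed sign. Dusp1 went to -7.74 with at least 2000 genes and 200000 reads, where the 1 cell of 24 months had no Dusp1 read. Nr4a1 went to 1.53 among cells with no Cnmd read. There it averaged 1.88 CPM at 24 months and was in 0 of 26 thinned cells of postnatal day 3. The share of cells with 5 or more members became 3.85% (postnatal day 3) and 33.3% (2 months) among cells with no Cnmd read, and 0 at 24 months with 20000 reads per cell or with at least 2 reads needed. The median rho of plate 4 became 0.31 among cells with no Cnmd read. Of the members' log2 folds under these alternatives, 19 values moved by more than the spread of the plates for 24 against 2 months, 18 for 2 months against postnatal day 3, and 30 for 24 months against postnatal day 3. The causes were not tested. With 15 cells of 24 months, single cells set most levels of that age.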
